A study of Mus musculus with 4 samples.

Results

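Nuclear genes for subunits of respiratory complex I were compared between HepKO and WT mouse liver preparations on 4 two-colour Agilent arrays. The list holds 36 gene symbols, fixed by name and matched to probes through their RefSeq accessions. Of these, 34 were measured, among 11499 genes measured in all, and Ndufa11 and Ndufv2 had no named probe. All 34 were above background on all 4 arrays in both channels, so no subunit was lost to the filter on dim probes. The list is not the whole of complex I: the membrane core encoded by the mitochondrial genome is not part of it.

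Complex I (NADH:ubiquinone oxidoreductase) takes electrons from NADH and passes them through a flavin and a chain of iron-sulfur clusters to ubiquinone, while its membrane arm pumps protons across the inner mitochondrial membrane. Its catalytic core is surrounded by accessory subunits, and assembly factors that are not in the finished enzyme join separately built modules. Pnpt1 encodes PNPase, an exoribonuclease of mitochondria, and the nuclear subunits are transcribed outside the organelle and imported as proteins.

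HepKO mice were Albumin-Cre/wt Pnpt1 fl/fl, in which Cre is driven by a promoter active in hepatocytes, and WT mice were Pnpt1 fl/fl without Cre. All 4 mice were C57BL/6J, and each pair of 1 HepKO and 1 WT mouse was matched for age, litter and sex. A pair labelled male was aged 12.29 weeks by its characteristics and 12.9 weeks by the growth protocol, and a pair labelled female was aged 4.29 weeks. A pair had 2 arrays, 1 with HepKO in Cy5 and 1 with HepKO in Cy3. They hold the same RNA and count as 1 replicate, so n = 2 pairs throughout. The pairs differed in age, labelled sex and slide at once, and these cannot be told apart.

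Several facts of the whole series bear on the values below. Sex-linked genes went against the labels: in both genotypes the Y-linked Ddx3y, Eif2s3y and Kdm5d were detected on 0 of 2 male-labelled and 2 of 2 female-labelled arrays, and Xist on 2 of 2 and 0 of 2. The pairs are named by their labels only. Pnpt1 was measured by 2 probes. For the brighter, log2 HepKO over WT was 0.31 and 0.058 in the male pair, -0.38 and -0.38 in the female pair, and -0.10 ± 0.19 on average. The dimmer was below 0 on all 4 arrays, with a mean of -0.52 ± 0.13 and an adjusted p of 0.0799 over 22813 probes. No source used here says where the deleted part of the gene lies relative to these probes. Between 48.2% and 58.6% of probes were above background, depending on array and channel. Ratios given with an error are the mean log2 HepKO over WT of the 2 pairs ± its moderated SE in the limma fit, which also gave the p-values, adjusted over all 11499 genes.

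None of the 34 subunits passed the adjusted threshold of 0.05, against 15.7% of all genes (12% higher and 3.71% lower). The smallest adjusted p was 0.0642, for Ndufb3. The share over all genes depended on the processing: limma called 0 genes with normexp fitted on all spots (3012 at an unadjusted p under 0.05) and 0 with no filter on dim probes (4638). At an unadjusted p under 0.05, 13 of 34 subunits were lower (38.2%) and 0 were higher, beside 12.7% lower and 23.6% higher among all genes. This count depended on single arrays and on the dye orientation: it was 2 when male pair replicate 2 (HepKO in Cy3) was left out, 7 when female pair replicate 2 (HepKO in Cy3) was, 2 with HepKO in Cy5 alone, and 3 with the deposited ratios or the authors' value table. The count rose to 17 with HepKO in Cy3 alone. It was 14 with arrays centred on their medians or with no filter on dim probes. Leaving out male pair replicate 1 or female pair replicate 1 also gave 14. The mean ratio was below 0 for 28 of 34 subunits (82.4%), beside 42.4% of all genes. It ran from -0.77 (Ndufb3) to 0.15 (Ndufab1), with a median of -0.28, whereas the median of all genes was 0.083. Ratios were below 0 on all 4 arrays for 17 of 34 subunits (50%), beside 25% of all genes, and above 0 on all 4 for 0 of 34, beside 39.4%. The moderated SE of a subunit was between 0.14 and 0.21, and its 95% interval reached 0.39 to 0.57 to either side, and 21 of the 34 intervals included 0. The smallest mean decrease that passed the threshold among all genes was 0.70 on the log2 scale. In RNA of a whole preparation, fewer cells of a type and less RNA per cell cannot be told apart.

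Dye orientation and pair moved the subunits together. On the male pair, the median over subunits was -0.11 with HepKO in Cy5 and -0.51 with HepKO in Cy3. On the female pair it was -0.17 with HepKO in Cy5 and -0.32 with HepKO in Cy3. The ratio was lower with HepKO in Cy3 for 34 of 34 subunits of the male pair and for 28 of 34 of the female pair, beside 49.9% and 56% of all genes. The median of all genes lay between 0.080 and 0.099 on the 4 arrays. Loess normalization centres each array, so this median could not have shown a dye shift. When only HepKO in Cy5 was used, the median of the subunits was -0.13 and 0 of 34 passed. With HepKO in Cy3 alone it was -0.43 and 6 passed, all lower: Ndufa1, Ndufb2, Ndufb3, Ndufb10, Ndufb11 and Ndufc1. Averaging the orientations weights both equally. The median was -0.38 in the male pair and -0.22 in the female pair, and 27 of 34 subunits were lower in the male pair, a difference that was not tested.

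**Figure D1:**
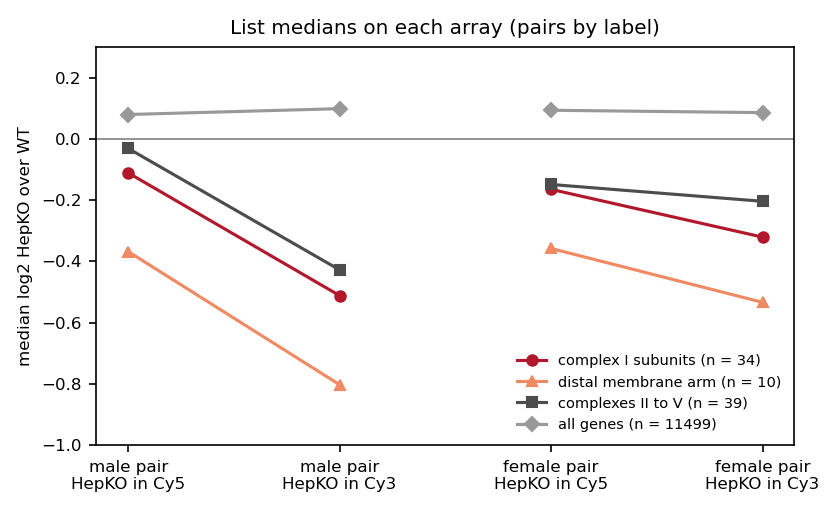
Median log2 HepKO over WT on each array (vertical axis) for the 34 complex I subunits, the 10 distal membrane arm subunits among them, 39 subunits of complexes II to V and all 11499 genes. A line joins the arrays of a pair, HepKO in Cy5 on the left and HepKO in Cy3 on the right. All 3 respiratory chain medians are below 0 and lower with HepKO in Cy3. The median of all genes, which loess normalization keeps nearly level across arrays, stays between 0.080 and 0.099.

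Markers of other liver cells moved with genotype in the same preparations. Of 10 macrophage markers measured, 8 rose, beside 12% of all genes. Cd163 went the other way, below 0 on all 4 arrays at -0.75 (adjusted p = 0.067). The summed level of the 10 was 53200 to 65800 intensity units over HepKO channels and 6960 to 18300 over WT channels. The brightest probes weigh most in such a sum. Beside the same 12%, endothelial markers rose in 6 of 8, stellate cell markers in 4 of 8 and lymphocyte markers in 4 of 8. Cholangiocyte markers rose in 1 of 4, Spp1 alone. The hepatocyte markers had 0 of 9 higher and 1 lower (Cyp2e1), beside 12% and 3.71% of all genes. Their summed level was 628000 to 1070000 in HepKO and 729000 to 905000 in WT. No list was absent from WT: 9 of 10 macrophage and 8 of 8 endothelial markers were above background there on all 4 arrays. The part of these cells in the complex I ratios was not tested.

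The accessory subunits of the distal membrane arm had the lowest median of the role groups. All 10 measured had a mean below 0, beside 42.4% of all genes, with a median of -0.48. On all 4 arrays, 8 of 10 were below 0, beside 25% of all genes. By the unadjusted p, 7 of 10 were under 0.05 and lower, beside 12.7% of all genes. After adjustment 0 of 10 passed, beside 15.7%. The count of 7 became 2 when male pair replicate 2 was left out and 4 when female pair replicate 2 was. It was 2 with HepKO in Cy5 alone or with the deposited ratios. With arrays centred on their medians, no filter on dim probes, or male pair replicate 1 left out, it was 8. Ndufb3, a small subunit whose human gene is mutated in complex I deficiency, had normalised intensities of 3279 and 2620 in HepKO against 5785 and 5947 in WT on the male pair's arrays. On the female pair's arrays it had 5321 and 3928 in HepKO against 7474 and 5869 in WT. Each HepKO channel was below the WT channel of the same array, and no HepKO value reached the lowest WT value. Its log2 ratios were -0.82, -1.18, -0.49 and -0.58 for the male and then the female pair, HepKO in Cy5 before HepKO in Cy3, the order kept below. The mean was -0.77 ± 0.18, a level of 0.587 of WT (adjusted p = 0.0642).

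Ndufb5, a single-pass membrane subunit, had intensities of 1273 and 1191 in HepKO against 2499 and 2362 in WT in the male pair, and of 2053 and 1758 against 2771 and 2224 in the female pair. Its ratios of -0.97, -0.99, -0.43 and -0.34 separated the pairs rather than the dyes, and the mean was -0.68 ± 0.20 (adjusted p = 0.097). Ndufb10, a subunit of the intermembrane space face, separated the dyes instead. It read -0.18, -1.06, -0.38 and -0.62, with a mean of -0.56 ± 0.14 (adjusted p = 0.0747). With each array centred on its median in place of loess it passed (adjusted p = 0.0458). Ndufb11, encoded on the X chromosome, read -0.40, -0.86, -0.35 and -0.56 and averaged -0.54 ± 0.15. Ndufb6 gave -0.41, -0.78, -0.25 and -0.53, averaging -0.49 ± 0.15. Ndufb10, Ndufb11 and Ndufb6 were below 0 on every array and lower with HepKO in Cy3 in both pairs. Ndufb8, whose protein is widely used as a marker of assembled complex I, averaged -0.47 ± 0.15, Ndufb2 -0.43, Ndufb4 -0.28, Ndufb7 -0.25 and Ndufb9 -0.23. Ndufb4 and Ndufb9 were above 0 on 1 array each, that of the male pair with HepKO in Cy5. The annotation also names Ndufb4b and Ndufb4c, which the Ndufb4 probe may not tell apart from Ndufb4.

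**Figure D2:**
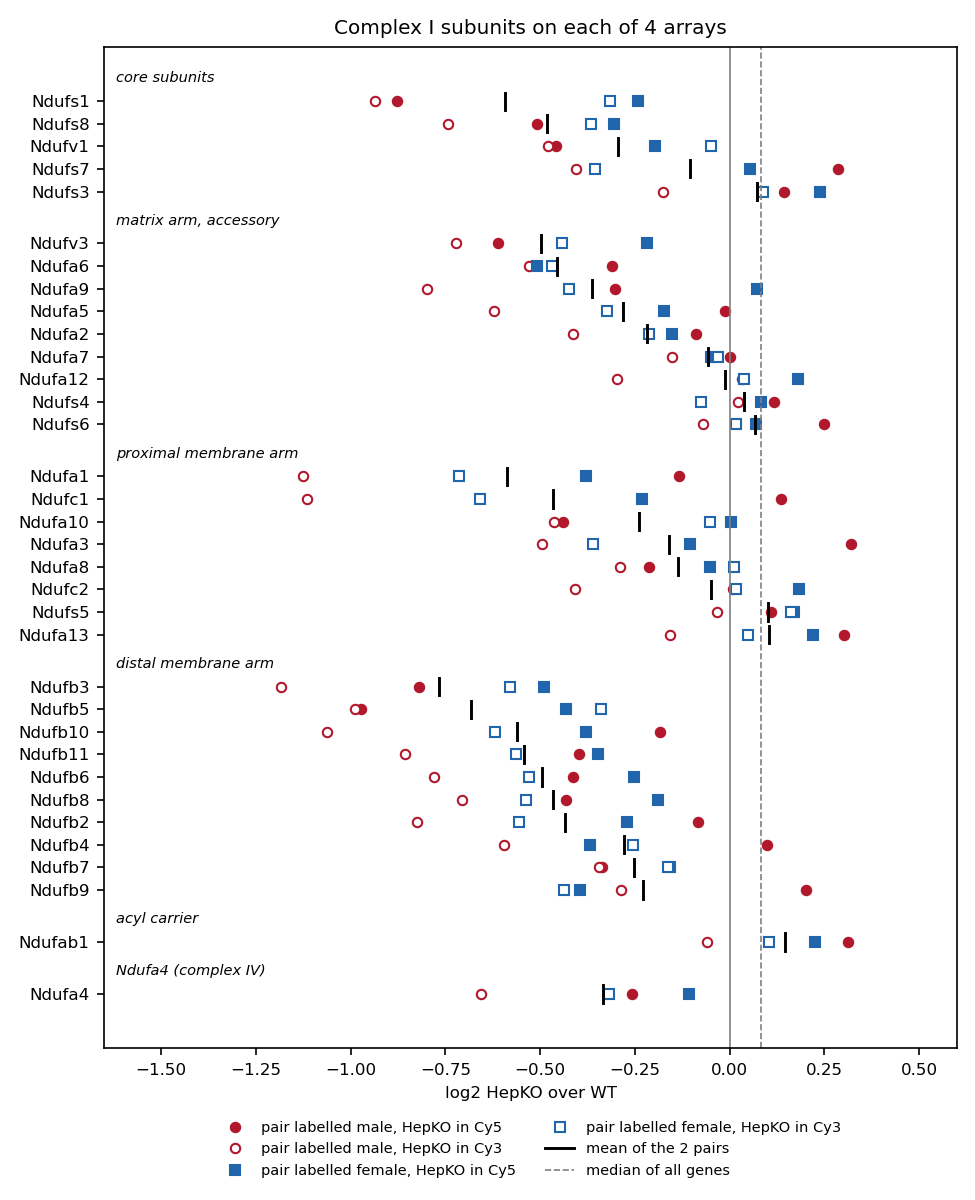
Log2 HepKO over WT of the 34 measured complex I subunits on each array, grouped by role (horizontal axis, log2). Circles are the pair labelled male and squares the pair labelled female, filled with HepKO in Cy5 and open with HepKO in Cy3; the black bar is the mean of 2 pairs, and the dashed line the median of all genes, 0.083. All 10 distal membrane arm means lie left of 0, and open symbols lie left of filled ones for most subunits.

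Of 5 core subunits measured, 4 had a mean below 0, beside 42.4% of all genes, and Ndufs3 had a mean above 0. The median was -0.30, and 3 were below 0 on all 4 arrays, beside 25% of all genes. By an unadjusted p under 0.05, 2 were lower, beside 12.7% of all genes. Ndufs1, the largest core subunit and a carrier of iron-sulfur clusters in the NADH-oxidising module, had intensities of 7778 and 6072 in HepKO against 14290 and 11610 in WT in the male pair, and of 12820 and 9170 against 15160 and 11420 in the female pair. Its ratios were -0.88, -0.93, -0.24 and -0.32, so that the male pair stood well below the female pair on both dyes. The mean was -0.59 ± 0.21 (adjusted p = 0.130). Ndufs8, which holds iron-sulfur clusters on the way to ubiquinone, read -0.51, -0.74, -0.30 and -0.37 and averaged -0.48 ± 0.16 (adjusted p = 0.116). Ndufv1, the subunit that binds NADH and flavin, read -0.46, -0.48, -0.20 and -0.049 and averaged -0.30 ± 0.16 (adjusted p = 0.270). All 3 were below 0 on every array.

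The other core subunits were nearer 0. Ndufs7, which carries the last iron-sulfur cluster before ubiquinone, read 0.29, -0.40, 0.054 and -0.36. Its sign followed the dye orientation in both pairs, and the mean was -0.10 ± 0.14. Ndufs3, a core subunit of the quinone-reducing module, had intensities of 11120 and 8780 in HepKO against 10070 and 9924 in WT in the male pair, and of 14080 and 10100 against 11930 and 9504 in the female pair. With ratios of 0.14, -0.18, 0.24 and 0.088, HepKO and WT overlapped, and the mean was 0.073 ± 0.15, with a 95% interval of -0.33 to 0.48.

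**Figure D3:**
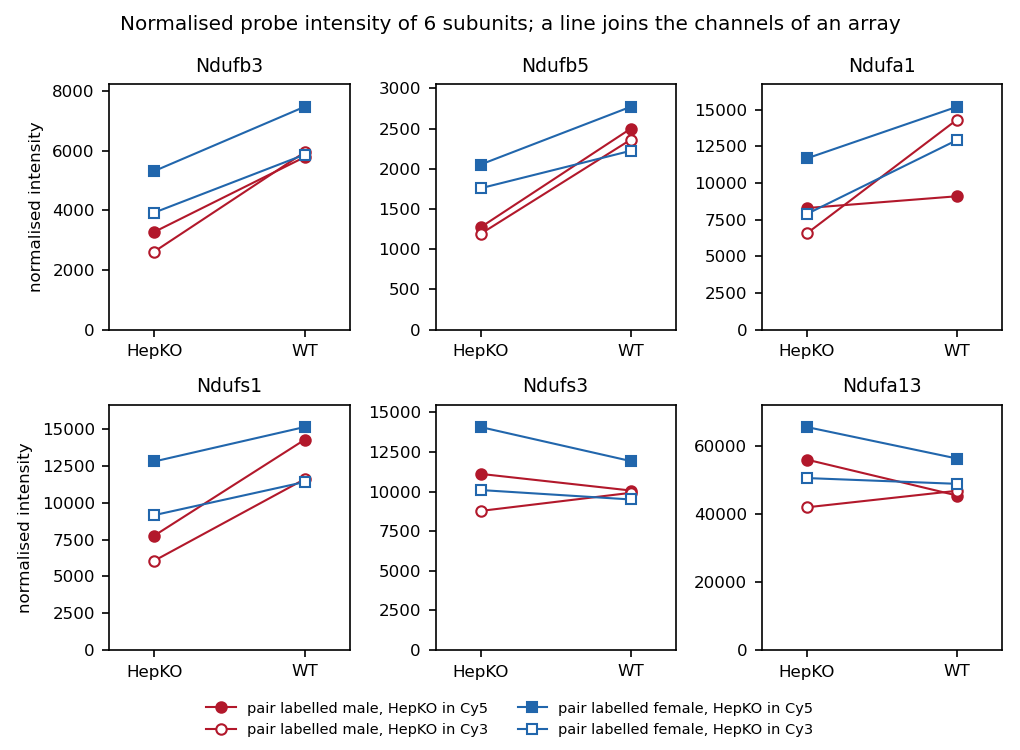
Normalised probe intensity (linear axis from 0) of 6 subunits in the HepKO channel (left) and the WT channel (right) of each array; a line joins the channels of 1 array. Ndufb3, Ndufb5, Ndufa1 and Ndufs1 slope up from HepKO to WT on all 4 arrays, and Ndufs3 and Ndufa13 do so on 1 array, that of the male pair with HepKO in Cy3.

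Accessory subunits of the matrix arm had a median of -0.22, and 7 of 9 means were below 0, beside 42.4% of all genes. Ndufv3, a small subunit beside the flavin-binding core, read -0.61, -0.72, -0.22 and -0.44, averaging -0.50 ± 0.16 (adjusted p = 0.116). Its 3 probes gave means of -0.50, -0.50 and -0.46, so that the value did not rest on a single probe. Ndufa6, which binds the mitochondrial acyl carrier protein in the quinone module, averaged -0.45 ± 0.14 and was also below 0 on every array. Ndufa9, which binds a nucleotide near the quinone site, averaged -0.36, Ndufa5 -0.28 and Ndufa2 -0.22. Ndufa7 lay at -0.058 by its brighter probe and at -0.26 by the other. Near 0 were Ndufs4, Ndufa12 and Ndufs6, which join late in assembly. Ndufs4, whose loss in mice is a model of Leigh syndrome, averaged 0.037. Ndufa12 read 0.034, -0.30, 0.18 and 0.037, with a mean of -0.011 ± 0.15, and its other 2 probes gave 0.078 and -0.041. The zinc-binding Ndufs6 read 0.25, -0.070, 0.069 and 0.017, averaging 0.066 ± 0.14, and its other 2 probes gave 0.038 and -0.034. For both, probes of the same gene differed in sign, and the annotation lists pseudogene copies (Ndufa12-ps and Ndufs6b).

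In the proximal membrane arm 6 of 8 means were below 0, beside 42.4% of all genes, with a median of -0.15. On all 4 arrays, 1 of 8 was below 0 (12.5%), a smaller share than the 25% of all genes. That 1 was Ndufa1, a small X-linked subunit needed for membrane arm assembly. Its intensities were 8294 and 6562 in HepKO against 9098 and 14320 in WT in the male pair, and 11680 and 7890 against 15200 and 12930 in the female pair. The ratios of -0.13, -1.13, -0.38 and -0.71 were much lower with HepKO in Cy3, and the mean was -0.59 ± 0.14 (adjusted p = 0.0673). A second Ndufa1 probe gave -0.30, -1.15, -0.38 and -0.72, so the dye pattern was in both probes. Ndufc1 behaved likewise, with 0.14, -1.11, -0.23 and -0.66 by one probe and 0.17, -1.10, -0.31 and -0.62 by the other, and a mean of -0.47 ± 0.14. Leaving out single arrays moved the mean of Ndufc1 between -0.78 (without male pair replicate 1) and -0.15 (without male pair replicate 2).

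Ndufa10, related in sequence to nucleoside kinases, averaged -0.24, Ndufa3 -0.16, Ndufa8 -0.14 and Ndufc2 -0.049. Ndufs5, on the intermembrane space side, read 0.11, -0.033, 0.17 and 0.16, with a mean of 0.10 ± 0.14. Ndufa13, also known as GRIM-19, had intensities of 56090 and 42030 in HepKO against 45510 and 46900 in WT in the male pair, and of 65690 and 50650 against 56410 and 48950 in the female pair. Its ratios of 0.30, -0.16, 0.22 and 0.049 averaged 0.10 ± 0.14. The positive means of Ndufs3, Ndufs5, Ndufs6 and Ndufa13 became -0.12, -0.26, -0.21 and -0.35 when arrays were centred on their medians in place of loess, so their direction depended on the scaling.

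A pair of genes on the list stand apart by role. Ndufab1 is the acyl carrier protein of mitochondrial fatty acid synthesis and sits in both arms of complex I. It read 0.31, -0.060, 0.22 and 0.10 by its brighter probe, averaging 0.15 ± 0.14, with a 95% interval of -0.24 to 0.53. Its other probe was below 0 on all 4 arrays and averaged -0.32, and the mean of both probes was -0.087, so the direction of Ndufab1 was not settled. The annotation lists pseudogene copies of Ndufab1 and Ndufs5 as well (Ndufab1-ps and Ndufs5-ps). Ndufa4 was first named a complex I subunit and is now assigned to complex IV. It read -0.26, -0.66, -0.11 and -0.32, averaging -0.33 ± 0.15 (adjusted p = 0.202), and the median of the other 33 subunits was -0.28.

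Promoter windows of 250 bases before to 50 after the start (RefSeq, GRCm38.p6) were given for 31 of the 34 measured subunits. They were searched on both strands for motifs of factors known to act on respiratory chain genes, a match on both strands counting once. The NRF1 motif was in 6 of 31 windows (19.4%) and in 5.19% of 27025 genes. The YY1 core AANATGGCG was in 7 of 31 (22.6%) and in 2.76%. The GABP core CCGGAAG was in 4 of 31 (12.9%) and in 9.93%. The estrogen-related receptor element TNAAGGTCA was in 1 of 31 (3.23%) and in 1.43%. These shares were not tested. Subunits with the NRF1 motif spanned Ndufa6 (-0.45), Ndufb4 (-0.28), Ndufa5 (-0.28), Ndufa8 (-0.14), Ndufs6 (0.066) and Ndufs5 (0.10). The 120 bases before the start are shown for the subunit with the lowest mean (Ndufb3), the one with most matches (Ndufb4) and the one with the highest mean (Ndufab1), 5′ to 3′ along the gene, with matches in capitals. They are chr1:58586277-58586396 on the plus strand, chr16:37654369-37654488 on the minus strand and chr7:122101849-122101968 on the minus strand.
Ndufb3: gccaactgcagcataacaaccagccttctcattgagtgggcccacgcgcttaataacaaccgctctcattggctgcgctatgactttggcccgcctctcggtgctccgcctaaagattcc
Ndufb4: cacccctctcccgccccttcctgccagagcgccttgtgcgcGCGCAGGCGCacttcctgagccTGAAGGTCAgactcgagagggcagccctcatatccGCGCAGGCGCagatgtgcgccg
Ndufab1: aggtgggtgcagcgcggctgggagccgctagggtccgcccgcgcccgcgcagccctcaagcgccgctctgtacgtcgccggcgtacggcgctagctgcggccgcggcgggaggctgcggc
In Ndufb4 the outer matches are the NRF1 motif read on the opposite strand, at -79 and -22 from the start, and the inner match is the estrogen-related receptor element at -57. None of these 4 motifs matched in the windows of Ndufb3 and Ndufab1.

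The assembly factors of complex I had a lower median than the subunits, a difference that was not tested. Of 19 listed, 14 were measured, 3 fell and 0 rose, beside 3.71% and 12% of all genes. The median was -0.50. Means were below 0 for 13 of 14 (92.9%), beside 42.4% of all genes, and 12 of 14 (85.7%) were below 0 on all 4 arrays, beside 25%. Acad9, a flavoprotein of the acyl-CoA dehydrogenase family that serves membrane arm assembly, fell with ratios of -1.40, -1.66, -1.01 and -1.01 and a mean of -1.27 ± 0.19 (adjusted p = 0.0281). Timmdc1, a membrane protein of the same assembly pathway, fell with -1.41, -1.04, -0.87 and -0.53 and a mean of -0.96 ± 0.19 (adjusted p = 0.0460). Dmac2, a distal membrane arm assembly component, fell with -0.88, -0.65, -0.68 and -0.60 and a mean of -0.70 ± 0.14 (adjusted p = 0.0496). None of the 3 was lower with HepKO in Cy3 in both pairs. In the fits that left out male pair replicate 2 (HepKO in Cy3) or female pair replicate 1 (HepKO in Cy5), Acad9 alone passed, and with normexp fitted on all spots, or with no filter on dim probes, 0 of the factors did. Of the alternatives that gave a value, Acad9 passed in 12 of 14, Timmdc1 in 9 of 15 and Dmac2 in 4 of 15. Other members of the assembly complex that holds Acad9 did not pass, Tmem126b at -0.65, Ndufaf1 at -0.64 and Ecsit at -0.29. Tmem186 was the exception, above 0 on all 4 arrays at 0.42 ± 0.14 (adjusted p = 0.122).

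Subunits of complexes II to V were also mostly below 0. Of 39 measured, 1 fell and 0 rose, beside 3.71% and 12% of all genes. Only the count that fell was near its background. Means were below 0 for 31 (79.5%), beside 42.4% of all genes, and 17 (43.6%) were below 0 on all 4 arrays, beside 25%. At an unadjusted p under 0.05, 8 (20.5%) were lower, beside 12.7%. Their median was -0.15, against which the -0.28 of the complex I subunits was not tested. The median was -0.41 over 4 subunits of complex II, -0.098 over 9 of complex III, -0.25 over 11 of complex IV and -0.081 over 15 of complex V. The gene that fell was Cox6c, a small complex IV subunit, with -0.65, -1.17, -0.77 and -0.72 and a mean of -0.83 ± 0.15 (adjusted p = 0.0380). It did not pass without male pair replicate 2 (adjusted p = 0.0772) or without female pair replicate 1 (adjusted p = 0.0519), with HepKO in Cy5 alone (adjusted p = 0.0572), or with the deposited ratios (adjusted p = 0.0723), and passed in 7 of 14 alternatives. The lowest and highest members were Sdha (-0.57) and Sdhd (-0.33) in complex II, Uqcr11 (-0.45) and Uqcr10 (0.32) in complex III, and Atp5e (-0.41) and Atp5b (0.26) in complex V. The highest of complex IV was Cox6a1 (0.35).

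**Figure D4:**
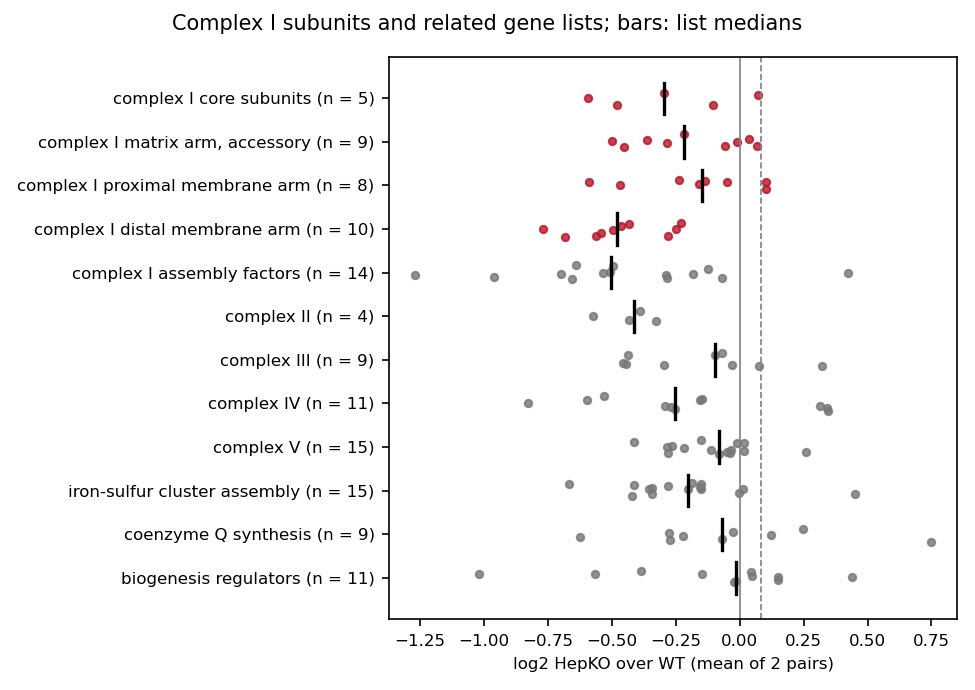
Mean log2 HepKO over WT of each measured gene (points; horizontal axis, log2) in the 4 larger role groups of complex I (red) and in related lists (grey), with n in brackets. Black bars are list medians, the solid line is 0 and the dashed line the median of all genes, 0.083. The distal membrane arm (-0.48) and the assembly factors (-0.50) have the lowest medians of the lists shown.

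Of 15 genes of mitochondrial iron-sulfur cluster assembly, 0 passed, beside 15.7% of all genes. Means were below 0 for 13 (86.7%), beside 42.4%, and 7 were below 0 on all 4 arrays (46.7%), beside 25%. The median was -0.20, with a range from Bola1 (-0.67) to the chaperone Hspa9 (0.45). Of 9 genes of coenzyme Q synthesis, 1 rose and 0 fell, beside 12% and 3.71% of all genes. The count that rose was near its background. The gene that rose was Pdss1, which makes the side chain of ubiquinone, at 0.62, 0.79, 0.83 and 0.75, averaging 0.75 ± 0.14 (adjusted p = 0.0429). The lowest was Coq8a (-0.62). Pdss1 did not pass without male pair replicate 2 (adjusted p = 0.0784) or without female pair replicate 1 (adjusted p = 0.0577), with HepKO in Cy5 alone (adjusted p = 0.0579), with the deposited ratios (adjusted p = 0.0859) or with the mean of all probes (adjusted p = 0.0635), and passed in 7 of 15 alternatives. Of 11 regulators of mitochondrial biogenesis, 1 fell and 0 rose, beside 3.71% and 12% of all genes. The gene that fell was Tfb2m, a factor for transcription of mitochondrial DNA, at -1.15, -1.26, -0.74 and -0.92, averaging -1.02 ± 0.17 (adjusted p = 0.0328). It did not pass without male pair replicate 2 (adjusted p = 0.0508) or with median centring (adjusted p = 0.0532), and passed in 11 of 15 alternatives. Gabpb1, a subunit of the factor that binds the GABP core, was the highest at 0.44 (adjusted p = 0.173).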

How the data were processed

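RNA of 2 HepKO and WT pairs was read on 4 arrays. Per the file headers, Agilent Feature Extraction 10.2.1.3 gave the deposited intensity values used here, the mean of each spot and the median of its local background. The deposited log10 ratio, which per the file headers the same software had corrected for background and dye, and the authors' value table, which holds the same log10 ratios with medians of 0, were alternatives. Further steps of the authors are not given in the sources used here. Spots flagged as non-uniform or as population outliers (178 to 260 per array; background population outliers kept) were left out. Signals were corrected by normexp (offset 50) and normalized by loess within arrays in limma 3.58.1 under R 4.3.3, with control spots at weight 0. Every log2 ratio was expressed as HepKO over WT, and the arrays of a pair were averaged. A probe was kept if above background on both arrays of a pair in either genotype. A gene took the value of its brightest kept probe, named by RefSeq accession through a GRCm38.p6 table. Intensities given for a channel are from the same normalized signals and are relative. They are compared within a probe only, except for the summed levels of marker lists, which add different probes. The number of arrays, not a count of molecules, limits their precision. The test was limma's moderated fit (eBayes) of the mean of 2 pairs against 0, with Benjamini-Hochberg adjustment over 11499 genes. It has 1 residual and 3.12 prior degrees of freedom.

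The members, lists and tests were chosen with earlier results of these data known. Values on each array were given for the core subunits, the 10 lowest and 4 highest means, subunits whose probes differ in sign, Ndufab1 and Ndufa4. In related lists the genes past the threshold, or else the lowest and highest, were given. Alternatives were another normalization, background, filter, probe rule or source of ratios, each dye orientation alone, each array left out, and, chosen after seeing the data, a wider set of outlier flags.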

Additional observations from a re-analysis of the deposited data

How the results depend on the processing

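No pairing by replicate number was possible, because these numbers mark only the dye orientation of an array and match no mice across pairs. The matching of HepKO to WT is already in the test, whose ratios are taken within each pair. With normexp fitted on all spots or with no filter on dim probes, limma called 0 genes instead of 1805 (3012 and 4638 at an unadjusted p under 0.05) and 0 assembly factors. The cause was not tested. With median centring in place of loess, 1 subunit passed (Ndufb10), the median of all genes was 0.18, that of the subunits -0.50 and that of the distal membrane arm -0.61, 1 assembly factor passed, and Ndufa13, Ndufs3, Ndufs5 and Ndufs6 were at -0.35, -0.12, -0.26 and -0.21. On arrays with HepKO in Cy5 alone, the medians of the subunits and the distal arm were -0.13 and -0.30, and Ndufa12 and Ndufs7 turned to 0.11 and 0.17. With HepKO in Cy3 alone, 6 subunits passed, the medians were -0.43 and -0.66, and Ndufa13, Ndufs3 and Ndufs6 turned to -0.055, -0.044 and -0.027. With the deposited log10 ratios and with the authors' value table, Ndufa12 was at 0.0032, 3 subunits had an unadjusted p under 0.05 instead of 13, and 2 and 1 assembly factors passed. With the mean of all probes, Ndufa12 was at 0.0086 and Ndufab1 at -0.087. With the wider flags, 29 subunits were measured and 1 assembly factor passed, Acad9 having lost its probe.

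Over the 4 fits without 1 array, the genes called ranged from 1125 (without male pair replicate 2) to 2147, the subunits called stayed at 0, their median ranged from -0.40 to -0.19 and that of the distal arm from -0.60 to -0.37. The assembly factors called ranged from 1 to 3. Ndufa12 ranged from -0.094 to 0.071, Ndufa13 from -0.012 to 0.22, Ndufs3 from -0.0065 to 0.15, Ndufs6 from -0.014 to 0.15 and Ndufs7 from -0.28 to 0.068. Under all 15 alternatives the medians of the subunits and of the distal arm stayed below 0 and below that of all genes. Subunits below 0 on all arrays used numbered 16 to 25. All 34 subunits were above background on all 4 arrays.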

Other observations

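The mitochondrial ribosome, which translates the complex I subunits encoded in the organelle, was measured in 75 of 77 listed genes. Its median was -0.075, and 43 of 75 means were below 0 (57.3%), beside 42.4% of all genes. Of the 75, 1 gene fell and 0 rose, beside 3.71% and 12% of all genes. That gene was Mrpl34, a protein of the large subunit, with ratios of -1.16, -1.81, -0.98 and -1.17 and a mean of -1.28 ± 0.17 (adjusted p = 0.0243). The highest was Mrpl35, at 0.97, 0.35, 0.66 and 0.34, with a mean of 0.58 ± 0.15 (adjusted p = 0.0716).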
